A study of Nasonia vitripennis with 23 samples.

Results

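The genes oskar and nanos of the parasitoid wasp Nasonia vitripennis were measured as RNA in the heads of ovipositing females. They were taken from the table of counts by their symbols, as 2 of 14131 genes, and both were among the 13599 genes that had at least 1 read in the libraries tested. Nos, a symbol carried by 5 other rows, was not taken as nanos, although nos is a synonym of nanos. Every library was a pool of 12 heads from AsymC females, a strain cured of Wolbachia, that had oviposited for 3 h on 3 hosts. All had first been given a host and then honey solution, and the age of the females and the day on which each pool was collected are not in the labels. The focal female was alone (single-foundress, 8 libraries), with 4 co-foundresses (five-foundress, 7 libraries) or with 9 (10-foundress, 8 libraries), and co-foundresses came from the red-eyed STDR strain. The question was whether the number of co-foundresses, to which females fit the sex ratio of their offspring, was accompanied by a change of expression in the head. A head holds brain, eyes, antennae, muscle and fat body, so that no value here belongs to the brain alone.

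Germ plasm is the cytoplasm at the posterior pole of the insect egg from which the germ cells are formed. In Drosophila melanogaster, Oskar protein builds the germ plasm, and nanos RNA is held and translated there. Nanos protein, together with Pumilio, represses the maternal RNA of hunchback in the posterior embryo and that of cyclin B in the germ cell precursors. In Nasonia the germ plasm forms a compact body, the oosome, and oskar is needed for it. Both genes also act outside the germ line, since each is known to shape the dendrites of larval sensory neurons in Drosophila, and oskar acts in the nervous system of a cricket. No other gene of a list of 63 germ line terms had a matching symbol or synonym, so that the comparison rests on these 2 genes.

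The 22 libraries that were tested had between 25194329 and 69696501 reads counted on genes (median 35208315). Single-foundress replicate 2 had 52427768. This library was left out of the tests and its values are shown apart. The authors had removed it as an outlier in a principal component plot, and reported that its percentage of mapped reads was the lowest of all. Lop1, the long wavelength opsin of the eye, stood between 5530 and 11911 CPM in the 22 libraries, as a marker of head tissue. CPM is the number of reads per 1000000 reads counted, scaled with TMM factors over all 23 libraries. In pools of whole heads, fewer cells of a type and less RNA per cell cannot be told apart.

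The genes differed in how they were detected. oskar, the organiser of germ plasm, was counted in every pool, whereas nanos, the translational repressor, was at the edge of detection in every pool but 1. In the 22 libraries oskar had 286 to 709 reads per library and nanos had 1 to 11. For nanos 10 of the 22 libraries held no more than 3 reads, which is also the limit that a count of 0 would allow. Gene lengths of the annotation used for counting are not given here, so the CPM of one gene cannot be set against that of the other as a level, and it is the pattern over pools that is compared.

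In single-foundress pools oskar had a lowest value of 10.0 CPM, a median of 12.1 and a highest value of 16.2 (n = 7). In five-foundress pools the lowest was 8.24 CPM, the median 10.6 and the highest 13.9 (n = 7). In 10-foundress pools the lowest was 8.20 CPM, the median 10.1 and the highest 14.2 (n = 8). The groups thus overlapped over most of their range, and each held a few pools that stood higher. In the single-foundress group these were replicates 1, 7 and 8, with 16.2, 16.0 and 15.3 CPM, and the other 4 pools lay between 10.0 and 12.1. In the 10-foundress group they were replicates 17 and 24, with 13.9 and 14.2 CPM.

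**Figure D1:**
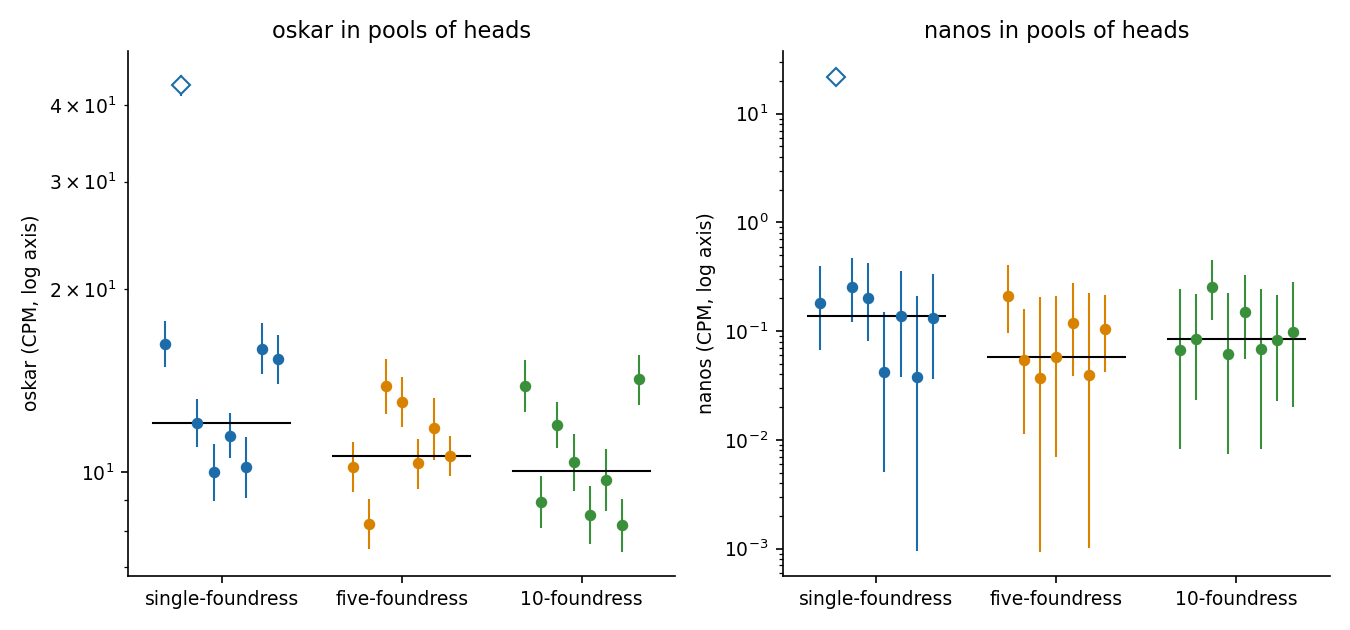
CPM (log axis) of oskar, at left, and nanos, at right, in each pool by foundress number; circles are the 22 libraries tested, the open diamond is single-foundress replicate 2, vertical lines are 95% Poisson intervals of the count and black lines are group medians without the diamond. oskar lay between 8.20 and 16.2 CPM in the 22 libraries and at 43.1 in the diamond, and nanos lay between 0.0369 and 0.255 CPM and at 21.6 in the diamond.

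oskar averaged 13.0 ± 2.73 CPM (SD, n = 7) without co-foundresses, 11.2 ± 1.90 CPM (SD, n = 7) with 4 of them and 10.7 ± 2.36 CPM (SD, n = 8) with 9. The means ran downwards with foundress number, but each step was smaller than the SD within groups. The five-foundress group stood at a log2 fold change of -0.22 over the single-foundress group (standard error 0.15, 95% interval -0.54 to 0.10, adjusted p = 1, quasi-likelihood test of edgeR). The 10-foundress group stood at -0.053 over the five-foundress group (standard error 0.15, 95% interval -0.36 to 0.26, adjusted p = 1.00 from edgeR). The 10-foundress group stood at -0.27 over the single-foundress group (standard error 0.15, 95% interval -0.58 to 0.038, adjusted p = 0.952 from edgeR). On the linear scale this last interval ran from 0.669 to 1.03 times the single-foundress level. For oskar alone, permuting its log2 CPM between groups (exact, two-sided) gave p = 0.175, p = 0.640 and p = 0.0990 in the same order, or 0.262, 0.640 and 0.262 when adjusted over these 3 comparisons. Of the 8 10-foundress pools, 4 lay below the lowest of the 7 single-foundress pools.

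nanos gave so few reads that its folds were wide. In single-foundress pools it had a lowest value of 0.0379 CPM, a median of 0.138 and a highest value of 0.255 (n = 7, 34 reads in all). In five-foundress pools the lowest was 0.0369 CPM, the median 0.0579 and the highest 0.212 (n = 7, 28 reads in all). In 10-foundress pools the lowest was 0.0616 CPM, the median 0.0843 and the highest 0.253 (n = 8, 34 reads in all). The ranges were nearly the same, and the highest pools of the 3 groups, single-foundress replicate 3, five-foundress replicate 10 and 10-foundress replicate 19, differed by only a few reads (10, 9 and 11).

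nanos averaged 0.142 ± 0.0809 CPM (SD, n = 7) without co-foundresses, 0.0895 ± 0.0628 CPM (SD, n = 7) with 4 of them and 0.109 ± 0.0650 CPM (SD, n = 8) with 9. The log2 fold change of the five- over the single-foundress group was -0.56 (standard error 0.42, 95% interval -1.44 to 0.31, adjusted p = 1 from edgeR). That of the 10- over the five-foundress group was 0.24 (standard error 0.42, 95% interval -0.62 to 1.11, adjusted p = 1.00 from edgeR). That of the 10- over the single-foundress group was -0.32 (standard error 0.41, 95% interval -1.16 to 0.51, adjusted p = 0.952 from edgeR). For nanos these intervals leave room for levels more than 2-fold lower in the comparisons with the single-foundress group and more than 2-fold higher in the 10- over five-foundress comparison.

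Neither member passed an adjusted p of 0.05 in any pairwise comparison or for foundress number as a whole, where edgeR gave p = 0.183 for oskar and p = 0.422 for nanos (n = 22, adjusted p = 0.994 for both). Nor did any of the 13599 genes in edgeR (0%). At an unadjusted p below 0.05, 240 genes (1.76%) stood out in the five- over single-foundress comparison, with 113 higher (0.831%) and 127 lower (0.934%). The 10- over five-foundress comparison had 246 such genes (1.81%), with 155 higher (1.14%) and 91 lower (0.669%). The 10- over single-foundress comparison had 433 (3.18%), with 229 higher (1.68%) and 204 lower (1.5%), and the test of foundress number as a whole had 267 (1.96%). DESeq2 also left 0 genes past the adjusted threshold, and its genes below an unadjusted p of 0.05 numbered 223, 204 and 434. Neither oskar nor nanos was among the edgeR genes at an unadjusted p below 0.05. Without five-foundress replicate 12 the fold of oskar in the 10- over five-foundress comparison became 0.0012, and without 10-foundress replicate 19 that of nanos became -0.077, so that neither direction was stable.

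**Figure D2:**
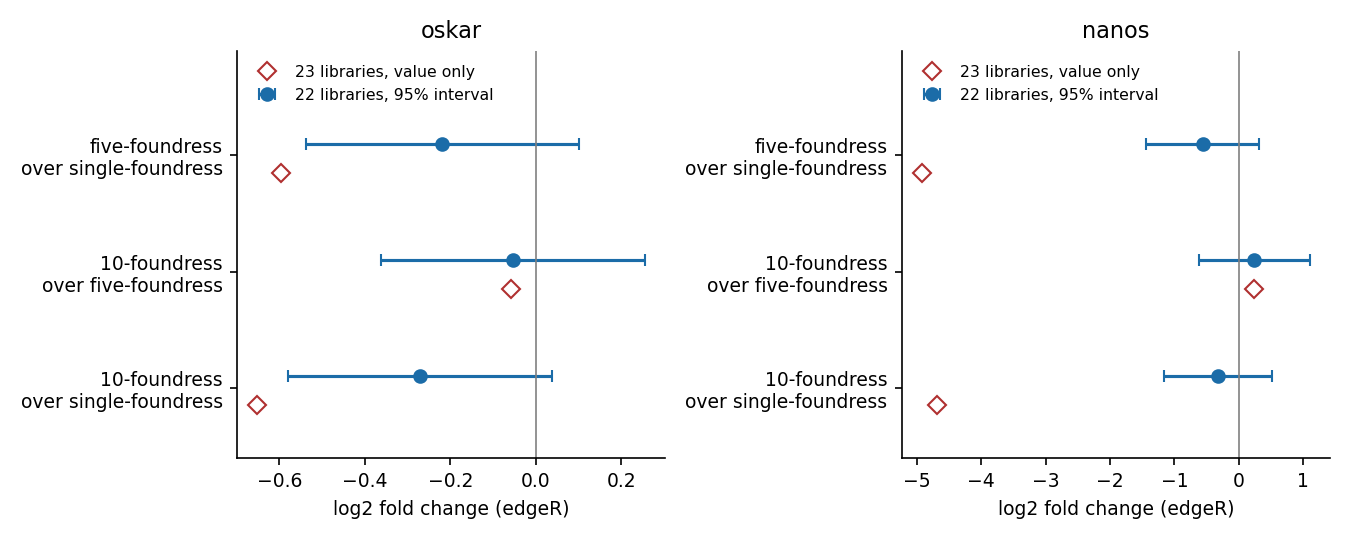
log2 fold change (edgeR) of oskar, at left, and nanos, at right, in the 3 pairwise comparisons; filled circles with bars are the 22 libraries with their 95% interval, open diamonds are the values with all 23 libraries. Every interval spans 0, and including single-foundress replicate 2 moved nanos to -4.92 and -4.69 and oskar to -0.60 and -0.65 in the comparisons with the single-foundress group.

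Pools varied more in oskar than counting alone would give. Over the 22 libraries the coefficient of variation of its CPM was 21.2%, while counting error by itself would give 4.93%. Among the 2657 genes whose mean count was within 2-fold of that of oskar, the median coefficient was 22.5%, and 46.0% of them varied less. The spread of oskar between pools was therefore ordinary for a gene of that count. For nanos the coefficient was 61.7%, against 49.9% from counting error alone, and the median of 891 genes with like counts was 69.1%.

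Across the 22 pools the level of oskar was lower in libraries with more reads. Its log2 CPM and the log2 total count gave Pearson's r = -0.527 (permutation p = 0.0111, n = 22) and Spearman's rho = -0.495 (permutation p = 0.0204), or 0.0215 and 0.0613 after adjustment over 3 relations. Without the 2 libraries farthest from the median total r was -0.516, and within the single-, five- and 10-foundress groups rho was -0.321, -0.679 and -0.524. With the total count as a covariate in edgeR, an alternative added after the data were seen, the log2 fold change of oskar was -0.11 in the five- over single-foundress comparison, -0.10 in the 10- over five-foundress comparison and -0.22 in the 10- over single-foundress comparison. The comparisons with the single-foundress group thus moved towards 0, and the 10- over five-foundress comparison moved away from it. The part of depth in the differences between groups was not tested further. Whether other genes followed the total count as closely as oskar was not tested.

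**Figure D3:**
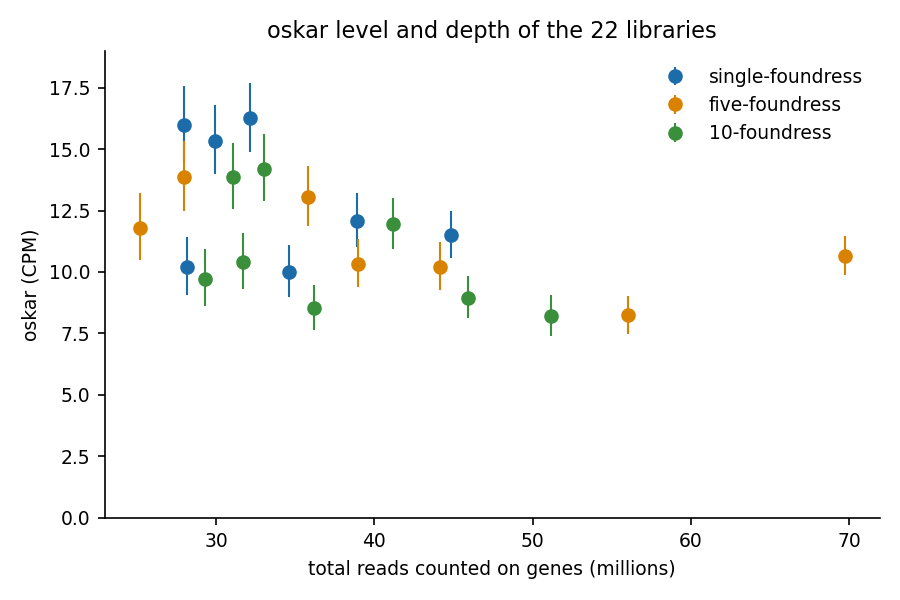
oskar CPM against the total number of reads counted on genes (in units of 1000000) in the 22 libraries, coloured by foundress number; vertical lines are 95% Poisson intervals of the count. The deepest library, with 69696501 reads, lies at 10.6 CPM, and the 3 single-foundress pools above 15 CPM have between 27953555 and 32164140 reads.

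With Para, the neuronal sodium channel gene, oskar gave r = -0.511 (permutation p = 0.0143, adjusted 0.0215, n = 22) and rho = -0.432 (permutation p = 0.0465, adjusted 0.0697). Without the 2 libraries farthest from the median of Para, r was -0.320, and within the single-, five- and 10-foundress groups rho was -0.321, -0.571 and -0.595. The relation thus weakened without these 2 libraries and kept its sign within each group. With nanos, the relation of oskar was close to none, with r = -0.0911 (permutation p = 0.688, n = 22) and rho = -0.102 (permutation p = 0.652), although at 1 to 11 reads little could have been seen.

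The genes whose pattern over the 22 pools was most like that of oskar, by Spearman's rho of CPM among the 11131 genes that averaged 10 counts or more, were LOC100114331, LOC100123698, LOC100119121, LOC103317827 and LOC100123618. Their rho lay between 0.904 and 0.923. Such values were common, since 552 genes had a rho above 0.8 and 95% of genes lay between -0.801 and 0.840, and all libraries share the same scaling. The table of counts pairs these identifiers with no product. In single-foundress replicate 2 the 5 genes stood at 0.671 to 0.959 times the median of the other single-foundress pools, unlike oskar.

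Single-foundress replicate 2 was the pool in which both genes were highest. There nanos had 1188 reads and 21.6 CPM, against 1 to 10 reads and 0.0379 to 0.255 CPM in the 7 other single-foundress pools. oskar had 2370 reads and 43.1 CPM, against 295 to 549 reads and 10.0 to 16.2 CPM in those pools. Both therefore lay above every one of the other 22 libraries. Relative to the median of the other single-foundress pools nanos was 156 times higher and oskar 3.57 times higher. When the reads of the 7 pools were summed the ratio was 152 for nanos (95% exact counting interval 109 to 221) and 3.36 for oskar (95% exact counting interval 3.18 to 3.55). These intervals cover counting error only, and as a single library the ratio has no replicate check. In CPM the difference from the median was 21.5 for nanos and 31.1 for oskar.

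A share within the library does not depend on how libraries are scaled. In single-foundress replicate 2 nanos took 33.4% of the reads that fell on either gene (95% exact binomial interval 31.8% to 35.0%), or 50.1 nanos reads for every 100 oskar reads. In the other 22 libraries it took between 0.237% and 2.08%, or 0.238 to 2.12 nanos reads for every 100 oskar reads, with a median of 0.907. The median ratio was 1.13 in the 7 other single-foundress pools, 0.665 in the five-foundress pools and 0.826 in the 10-foundress pools. The highest ratios of the 3 groups were 2.11, 2.08 and 2.12, so that the groups reached the same upper end.

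**Figure D4:**
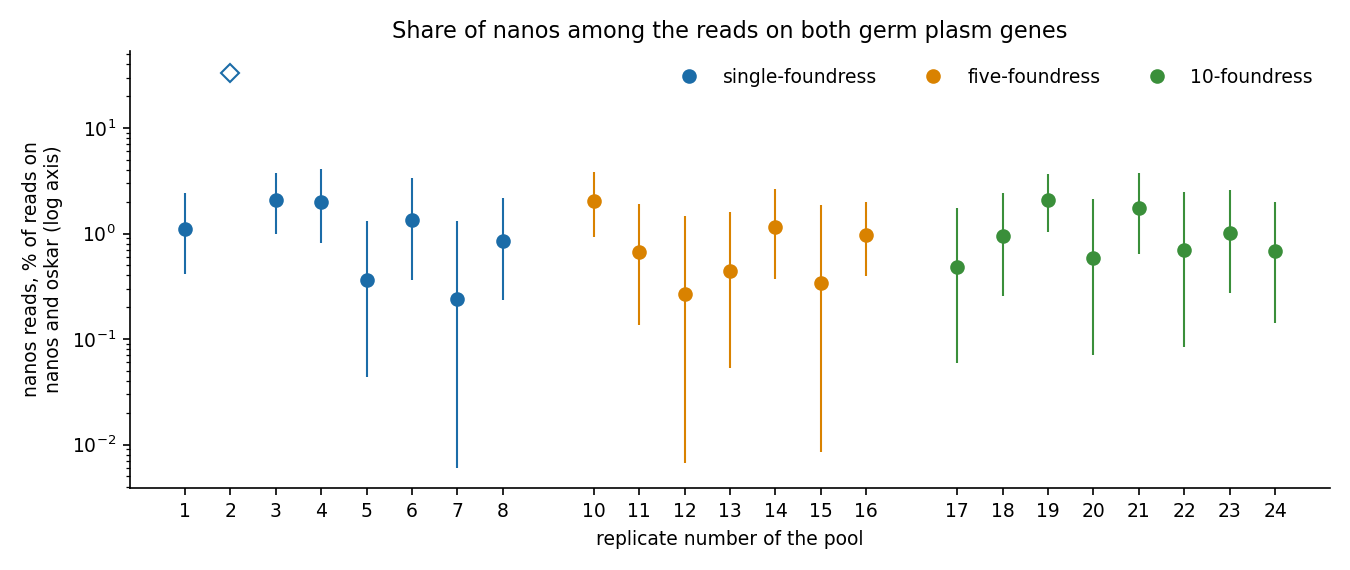
Reads on nanos as a percentage of the reads on nanos and oskar together (log axis) in each pool, by replicate number and foundress number; vertical lines are exact 95% binomial intervals and the open diamond is single-foundress replicate 2. The diamond stands at 33.4% and the other 22 libraries at 0.237% to 2.08%.

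Other genes of the egg and early embryo moved with these genes in that pool. Of the genes with at least 10 reads in single-foundress replicate 2, 1313 of 11584 (11.3%) were more than 2-fold above the median of the other single-foundress pools. In each of these 7 other pools, compared with its own remaining group, the share was between 1.96% and 4.88%. Both germ plasm genes were above 2-fold. The lists held 27 patterning and 29 cell division terms, of which only 6 and 3 matched a gene. Of the 6 patterning genes 5 were above 2-fold, and of the 3 cell division genes 3 were. The median ratios of the 2 lists were 16.9 and 27.0 beside 1.02 over all genes. The same 5 and 3 genes were higher in single-foundress replicate 2 than in any other library, as were 1270 of the 11584 genes. Genes were admitted by their reads in single-foundress replicate 2, so that these counts and ratios describe that library alone and are no test. No cause was tested.

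Hb, the gap gene hunchback that Nanos represses in Drosophila, had 13.2 CPM in single-foundress replicate 2, against 0 to 0.510 in the other single-foundress pools. cycB, the mitotic cyclin B gene that Nanos represses in Drosophila germ cells, had 88.6 CPM in replicate 2, against 0.0330 to 1.30. The RNA of both was high in the same pool as that of nanos, and whether Nanos acts on them in this pool was not tested. Gt, the gap gene giant, had 26.5 CPM in replicate 2, against 0.523 to 1.43. Cad, the posterior factor caudal, had 5.75 CPM in replicate 2, against 0.114 to 0.332. Eve, the pair-rule gene even-skipped, had 3.75 CPM in replicate 2, against 0.378 to 0.661. Those genes were low in the other heads, and of them only Hb had pools without a read. Kr, the gap gene Kruppel, had 8.12 CPM in replicate 2, against 1.04 to 5.88, and was only 2.13 times above the median. The pair-rule gene hairy, at 50.7 CPM in replicate 2 and 40.9 to 61.2 in the others, stood within their range. Cdk1, the kinase partner of cyclin B, had 20.0 CPM in replicate 2, against 0.274 to 0.991, and fzy, the Cdc20 activator of the anaphase complex, had 34.3 CPM, against 2.20 to 13.5.

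**Figure D5:**
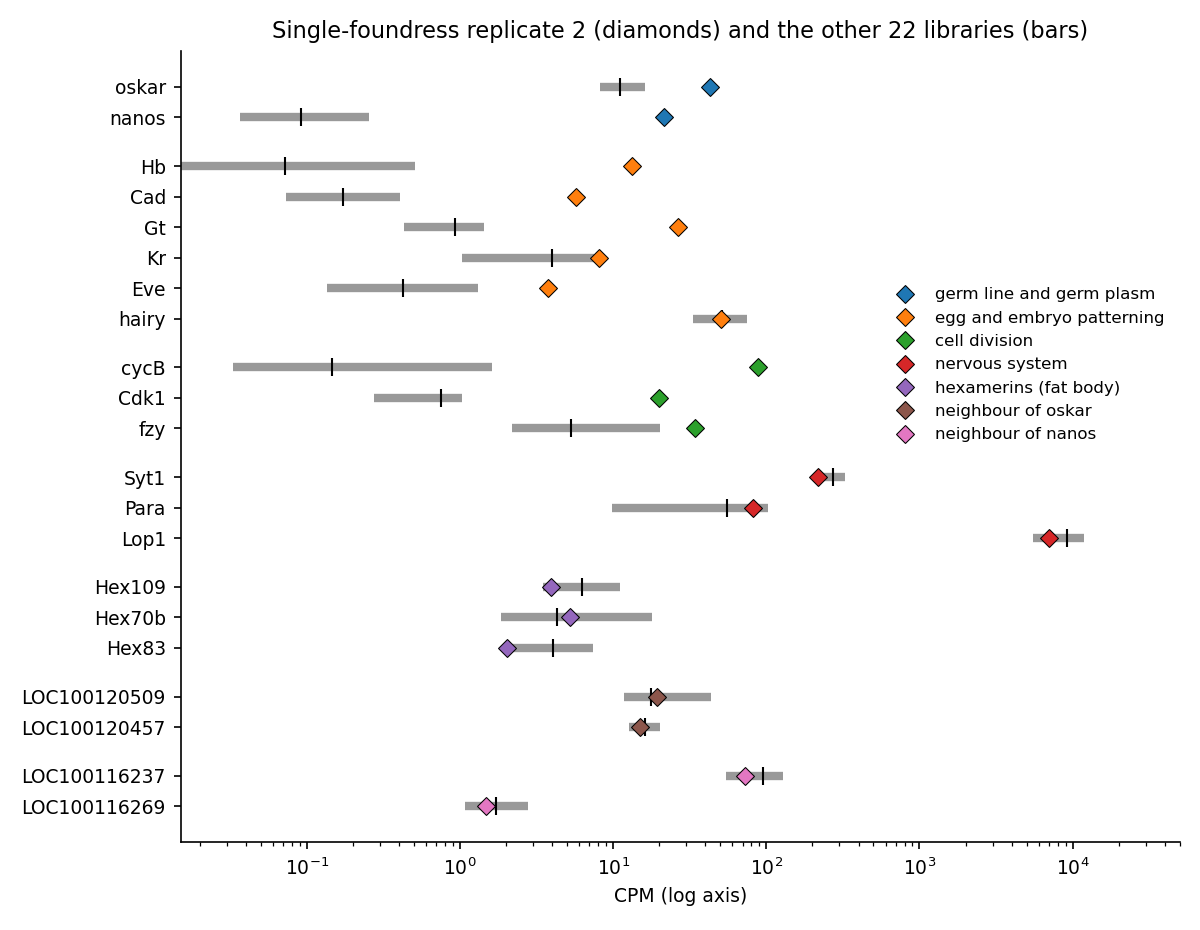
CPM (log axis) of oskar and nanos, of genes of embryo patterning, cell division, the nervous system and fat body, and of neighbours on either side of both genes. Neighbours are the nearest protein-coding genes that do not overlap the member and have a single row of counts. Diamonds are single-foundress replicate 2, grey bars run from the lowest to the highest of the other 22 libraries with the median as a tick, and a bar that meets the left edge reaches 0 CPM. nanos stands at 21.6 against a bar that ends at 0.255, and oskar at 43.1 against a bar that ends at 16.2, while the 4 neighbours fall within their bars.

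Of the 3 genes matched from 17 nervous system terms, 1 was more than 2-fold above the median of the other single-foundress pools. None was higher in single-foundress replicate 2 than in all other libraries. Over the 11584 genes with at least 10 reads there, these were 1313 and 1270 genes, so that counts among 3 genes say little. Lop1 had 6975 CPM in single-foundress replicate 2, against 7011 to 11583 in the other single-foundress pools. Syt1, a calcium sensor of synaptic vesicles, had 218 CPM in replicate 2, against 212 to 325, and Para had 82.0 CPM, against 9.91 to 93.8. Para was thus 2.24 times above the median, slightly more than Kr, but varied so widely that replicate 2 lay within the range of the other pools. The summed CPM of these 3 markers, nearly all of it from Lop1, was 7276 in replicate 2, which is just under the lowest of the other single-foundress pools (7389 to 11914) and within the five-foundress (6317 to 12075) and 10-foundress (5833 to 12237) ranges. Hex109, Hex70b and Hex83, storage proteins of the fat body chosen after the data were seen, had a summed level of 11.2 CPM in replicate 2, against 10.6 to 21.7. The members went in different directions, since Hex83 had 2.02 CPM in replicate 2, below all 22 other libraries (2.13 to 7.38), Hex109 had 3.95 CPM, below the other single-foundress pools (4.72 to 9.78), and Hex70b had 5.21 CPM, 1.63 times their median. The summed patterning genes had 108 CPM in replicate 2, against 44.0 to 65.5, and the summed cell division genes 143 CPM, against 3.43 to 13.9. None of these marker genes was at 0 in replicate 2, and their part in the levels of oskar and nanos was not tested.

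In the remaining 22 libraries the pool with most nanos reads, 10-foundress replicate 19 with 11, had no more than 0.292 CPM of cycB. The pools that followed were high in cycB, with 1.30 CPM in single-foundress replicate 3 (10 reads of nanos) and 1.63 CPM in five-foundress replicate 10 (9 reads of nanos). nanos and cycB were thus high together in the pools that followed but not in 10-foundress replicate 19, and the values rest on few reads. Hb was highest of the 22 libraries in single-foundress replicate 3 (0.510 CPM) and highest of its group in five-foundress replicate 10 (0.189 CPM). In 10-foundress replicate 19 it had no more than 0.123 CPM. Across foundress number, 0 of the 6 patterning, 3 cell division and 3 nervous system genes had an unadjusted p below 0.05 in any of the pairwise comparisons of edgeR. Over all genes the share was 1.76% (five- over single-foundress), 1.81% (10- over five-foundress) and 3.18% (10- over single-foundress). A count of 0 among so few genes therefore says little about them. The median log2 fold changes of the patterning, cell division and nervous system genes in the 10- over single-foundress comparison were -0.23, 0.13 and 0.14, beside 0.0099 over all genes.

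The share of a gene's reads that lay in that library describes how far its signal was confined to it. As a share of its CPM summed over the 23 libraries, 89.7% of nanos and 14.5% of oskar lay in single-foundress replicate 2, where equal libraries would each hold 4.35%. Among 11154 genes with at least 20 reads there, nanos ranked 55th and oskar 439th, and 53 genes had over 90%. Genes were admitted by their reads in this same library, so that these ranks and shares are a description of it and no test. The 10 genes with the highest share were LOC103317566, LOC100677948, LOC100116242, LOC100680228, LOC103317250, LOC103317403, LOC103316837, LOC103317821, LOC103316246 and LOC100120817, with 95.1% to 97.2%. LOC103317403 was the most abundant of them, with 346 CPM in replicate 2, against 0 to 1.23 in the other single-foundress pools and up to 5.73 over all 22 other libraries.

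The genes beside oskar and nanos on their chromosomes did not share the change. RefSeq's later assembly Nvit_psr_1.1 was used for the names of neighbours only, since the reads were counted on Nvit 2.1. These neighbours were chosen after the data were seen, as the nearest protein-coding genes that do not overlap the member and have a single row of counts. LOC100116237 and LOC100116269, on either side of nanos, stood at 0.900 and 1.24 times the median of the other single-foundress pools in replicate 2. LOC100120509 and LOC100120457, on either side of oskar, stood at 0.863 and 0.869 times it. In that assembly nanos overlaps 0 genes, whereas the spans of 10 genes overlap that of oskar. Of these, 8 have rows in the table of counts, with ratios between 0.602 and 1.46. Whether counting used the strand is not stated, and reads on overlapping genes were left uncounted where ambiguous, so some reads of oskar may have been lost to, or taken from, these genes, beside the counting error given above.

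How single-foundress replicate 2 is treated decides the call of nanos. With all 23 libraries in edgeR, nanos passed for foundress number as a whole (p = 7.3e-05, n = 23, adjusted p = 0.0216), as 1 of 77 genes (0.566% of 13613), and oskar did not (p = 0.0199, adjusted p = 0.817). The pairwise log2 fold changes of nanos became -4.92 in the five- over single-foundress comparison (adjusted p = 0.140 from edgeR) and -4.69 in the 10- over single-foundress comparison (adjusted p = 0.0868 from edgeR, where 39 genes or 0.286% passed). In DESeq2 on the 23 libraries with extreme counts kept, an alternative added after the data were seen, nanos was the 1 gene that passed in the five- over single-foundress comparison (-4.96, adjusted p = 0.0349, 0.00735% of genes). It was also 1 of 59 genes (0.433%) in the 10- over single-foundress comparison (-4.70, adjusted p = 0.00713), and was not among the 2 genes (0.0147%) of the 10- over five-foundress comparison. With the default replacement of extreme counts in DESeq2 it stood at -0.52 and -0.28 with an adjusted p of 1 in both. oskar had the same values under both settings of DESeq2, -0.59 and -0.65, and did not pass in either. These calls rest on 1188 reads of a single pool, since without it the same comparisons gave -0.56 and -0.32 in edgeR. nanos was chosen with its high level in that pool known, so that its calls with 23 libraries describe the pool and are no test.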

How the data were processed

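For 23 libraries of pooled heads, the file deposited by the authors gives raw counts for each gene. Its reads had been filtered to a mean Phred score of 30 or more, trimmed with cutadapt 1.8.3, aligned to Nvit 2.1 with TopHat2 2.0.14 and counted with HTSeq (given as 6.0.1) in union mode on Annotation Release 101. No column was left unused.

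Counts were tested with edgeR 4.0.16 in R 4.3.3 (TMM, quasi-likelihood, all 3 groups in one fit of the 22 libraries the authors kept, 1 read or more over these libraries, Benjamini and Hochberg adjustment over all genes). DESeq2 1.42.0, RLE factors, filterByExpr, the legacy fit, groups fitted alone, all 23 libraries and each library left out in turn were alternatives. The fits were tested on simulated data. Log values for the exact and sampled permutation tests (100000 draws) used a pseudocount of 0.01 CPM. Totals per library are given with the results, and with 1 to 11 reads nanos has wide intervals.

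oskar and nanos, the lists (germ line, embryo patterning, cell division, nervous system, yolk and fat body) and the tests were chosen with earlier results of these data known. Terms were matched to symbols or RefSeq synonyms, and those of yolk and fat body matched 0 genes. Named genes were these, the 5 most correlated with oskar, the 10 with the highest share in single-foundress replicate 2, and others stated as chosen later. Protein and promoter sequences were not used here.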

Additional observations from a re-analysis of the deposited data

Results flagged for a closer look

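The highest or lowest pool of each group was set against its nearest neighbour in CPM without a log, over 17 genes in 3 groups. Dixon's 95% critical value served only to flag pools, and 16 of 51 groups held a pool farther off than it. In 9 of these the pool was single-foundress replicate 2, whose high nanos and embryo genes were known when the genes were chosen, so that these 9 are a description and the count is not set against chance. That pool was apart with 43.1 CPM of oskar (next pool 16.2), 21.6 of nanos (0.255), 5.75 of Cad (0.332), 20.0 of Cdk1 (0.991), 3.75 of Eve (0.661), 26.5 of Gt (1.43), 13.2 of Hb (0.510), 88.6 of cycB (1.30) and 34.3 of fzy (13.5). For oskar the gap took 0.812 of the range of the group, above 0.526, and for nanos more than for oskar.

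The pool 10-foundress replicate 19 stood apart in nanos, with 0.253 CPM and the next pool at 0.151, a gap of 0.532 of the range that rests on 11 and 6 reads. In 10-foundress replicate 18, Hb had 0.341 CPM (next pool 0.123) and cycB 0.597 (0.292), and in 10-foundress replicate 17 fzy had 20.3 CPM (11.1). In five-foundress replicate 10, one of the pools with most nanos, cycB had 1.63 CPM (0.201). The fat body gene Hex70b stood apart with 9.90 CPM in single-foundress replicate 3 (next pool 5.54) and 17.9 CPM in five-foundress replicate 11 (7.66).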

How the results depend on the processing

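On the 22 libraries, neither gene passed an adjusted p of 0.05 in any comparison under any alternative that was run, and filterByExpr removed nanos. Leaving out each library in turn gave oskar log2 fold changes of -0.28 to -0.15 (five- over single-foundress), -0.13 to 0.0012 (10- over five-foundress) and -0.35 to -0.22 (10- over single-foundress). For nanos they ran from -0.89 to -0.33, from -0.077 to 0.57 and from -0.64 to -0.099. The reversals were oskar without five-foundress replicate 12 (0.0012) and nanos without 10-foundress replicate 19 (-0.077), both in the 10- over five-foundress comparison, and the cause was not tested. Genes past the adjusted threshold numbered 0 to 1 over these fits, the 1 in the 10- over single-foundress comparison without single-foundress replicate 3. At an unadjusted p below 0.05 there were 187 to 326, 165 to 530 (the most without 10-foundress replicate 18) and 301 to 1014 genes (the most without 10-foundress replicate 17), and filterByExpr gave 153, 161 and 310.

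With all 23 libraries, nanos passed for overall foundress number (p = 7.3e-05, n = 23), and 39 genes passed in the 10- over single-foundress comparison of edgeR, where genes below an unadjusted p of 0.05 numbered 500, 202 and 745. DESeq2 with extreme counts kept gave 1, 2 and 59 genes past the adjusted threshold, 399, 181 and 716 below an unadjusted p of 0.05, and nanos at -4.96 and -4.70 in the comparisons with the single-foundress group. nanos was chosen with its level in single-foundress replicate 2 known, so that its calls with this library are no test. With that library, the single-foundress mean became 16.8 CPM for oskar and 2.83 for nanos. Against the median of all 22 other libraries, single-foundress replicate 2 was 3.90 times higher for oskar and 236 times higher for nanos. No paired analysis was possible because replicate numbers do not recur between groups.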
